A study of Mus musculus with 2 samples.

Results

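The genes described here are 45 enzymes and RNA-binding proteins that set how long an mRNA lasts, out of 24015 genes in the expression table of the series. They were taken by name from a list and fall into 9 binders of AU-rich and related elements, 9 factors of decapping and 5′-to-3′ decay, 8 subunits of the CCR4-NOT deadenylase, the 2 subunits of the PAN2-PAN3 deadenylase, 10 subunits of the RNA exosome, 5 factors of nonsense-mediated decay and the 2 Staufen proteins. All 45 were found in the table, and all reached 1 RPKM (reads scaled to gene length and library size) in at least 1 library.

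Cultures of mouse embryonic fibroblasts were sequenced as poly(A)+ RNA, 1 library from cells labelled Adar2-WT (genotype Adar2+/+) and 1 from cells labelled Adar2-KO (genotype Adar2-/-). Adar2, an enzyme that converts adenosine to inosine in double-stranded RNA, is listed under the symbol Adarb1. Both cultures grew in DMEM with fetal bovine serum and antibiotics; the labels name no other allele or agent, and give neither the deleted exon, nor the strain, nor how many embryos each culture came from. With 1 library per genotype, none of the differences below has a replicate check, and the stated intervals cover counting error alone.

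Most mRNAs are degraded in a fixed order. Deadenylases shorten the poly(A) tail; the shortened mRNA is then decapped and eaten from its 5′ end by an exonuclease, or eaten from its 3′ end by the exosome. Proteins that bind AU-rich elements in the 3′ untranslated region (3′ UTR) recruit these enzymes to short-lived mRNAs, such as those of cytokines and early response genes, and in fibroblasts they shape the response to serum and inflammation. Nonsense-mediated decay removes mRNAs with a premature stop codon, and Staufen-mediated decay acts on mRNAs whose 3′ UTR folds into double-stranded RNA.

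The Zfp36 family, the best known of the AU-rich element binders, reads the core UAUUUAU, written TATTTAT in the sequences. The core occurred 3 times in the 3′ UTR of each of its 3 members, whose own mRNAs can thus carry the element the proteins read. The windows below come from GENCODE transcripts on GRCm38, are written 5′ to 3′ on the gene's strand (minus for all 9), and have the core in capitals. The first 2 windows of Zfp36 overlap in their flanks.
Zfp36, chr7:28376968-28376992: tgggcccttTATTTATgacgacttt
Zfp36, chr7:28376953-28376977: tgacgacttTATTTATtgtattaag
Zfp36, chr7:28376928-28376952: attttatagTATTTATatatattgg
Zfp36l1, chr12:80108424-80108448: atcaaaacgTATTTATtgccaaact
Zfp36l1, chr12:80108383-80108407: ttttgttcaTATTTATcgggatgac
Zfp36l1, chr12:80108169-80108193: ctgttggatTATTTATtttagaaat
Zfp36l2, chr17:84184916-84184940: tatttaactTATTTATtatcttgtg
Zfp36l2, chr17:84184868-84184892: tccatactgTATTTATcgagtatga
Zfp36l2, chr17:84184682-84184706: tgtatgtaaTATTTATttcattaat

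Outside this family the core was scattered over a minority of the genes, and none of the 10 exosome members held it. Both windows of the deadenylase gene Cnot6 (minus strand) and the window of another binder, Tia1 (plus strand), which also holds the longer element ATTTATTTA, are shown as examples.
Cnot6, chr11:49672371-49672395: ggtggtaatTATTTATgctttgaga
Cnot6, chr11:49671568-49671592: ctagtattaTATTTATatacagggt
Tia1, chr6:86430469-86430493: gatacaatgTATTTATttaaaagat

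In all, 14 of the 44 members with a usable 3′ UTR (31.8%) held at least 1 core, against 28.1% of the 3′ UTRs of 11910 compared genes. Their 3′ UTRs had a median length of 1213.5 bases, against 972 over all these genes. At least 3 cores were found in 3.46% of all these 3′ UTRs. Among the members, only Zfp36, Zfp36l1 and Zfp36l2 had 3; Cnot6 and Dcp2 had 2, and Celf1, Tia1, Tial1, Dcp1a, Dcp1b, Edc3, Cnot3, Cnot7 and Pan3 had 1. ATTTATTTA, which shares letters with the core and can overlap it, was in 3 members (Tia1, Zfp36l1 and Dcp2) and in 5.74% of all these 3′ UTRs; in Zfp36l1 it lies outside the windows shown. The search covered the transcript strand only, and a match is a description of the letters, not of binding.

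The transcript of the targeted gene was not lower in the KO-labelled library. Adarb1 had 18.4 RPKM (1155 reads, WT-labelled) and 25.8 RPKM (1633 reads, KO-labelled), with a 95% interval of the log2 reads ratio of 0.37 to 0.59. A gene-level value says nothing of a single deleted exon, so the directions below rest on the labels. The deposited editing lists hold 654 sites for the WT-labelled and 110 for the KO-labelled library, 75 of them shared. The RPKM values rest on 9446911 reads (WT-labelled) and 9546997 reads (KO-labelled), as solved from the table. All 10 fibroblast markers were expressed, from 9.40 (Thy1) to 96.2 RPKM in the WT-labelled and from 12.3 (Dcn) to 97.9 RPKM in the KO-labelled library. Several of them differed more between the libraries than most decay genes did. Thy1 had 9.40 and 72.1 RPKM (154 and 1195 reads), Dcn 29.7 and 12.3, Pdgfra 40.6 and 29.2, and Pdgfrb 47.7 and 35.4, the WT-labelled library first. Leukocyte, endothelial and epithelial markers were low. Of the neural markers, Tubb3 was low in neither library (20.1 and 15.7 RPKM). Sox2 was low only on the KO-labelled side (24.2 and 0.171 RPKM). Summed RPKM was 2.49 and 0.303 for 5 leukocyte markers, 3.998 and 0.409 for 4 endothelial markers, 2.22 and 0.722 for 4 epithelial markers, and 44.4 and 16.0 for 5 neural markers, the WT-labelled library first. Ptprc, Epcam and Elavl3 had a value of 0 in the KO-labelled library, Krt5 in the WT-labelled library and Elavl4 in both. The part of these differences in the values below was not tested, and in a bulk library fewer cells of a type and less RNA per cell cannot be told apart.

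The decay machinery was expressed throughout, and at similar levels in both libraries. The 45 genes ran from Dcp1b (2.11 RPKM) to Zfp36l2 (78.3 RPKM) in the WT-labelled library and from Dcp1b (1.61 RPKM) to Zfp36l2 (69.2 RPKM) in the KO-labelled library, with medians of 26.3 and 29.3 RPKM. Over all 13867 compared genes, those reaching 1 RPKM in either, the medians were 19.6 and 19.8 RPKM. Both values were at or above 10 RPKM in 41 of the 45 genes; the exceptions were Dcp1b, Xrn1, Pan2 and Stau2.

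**Figure D1:**
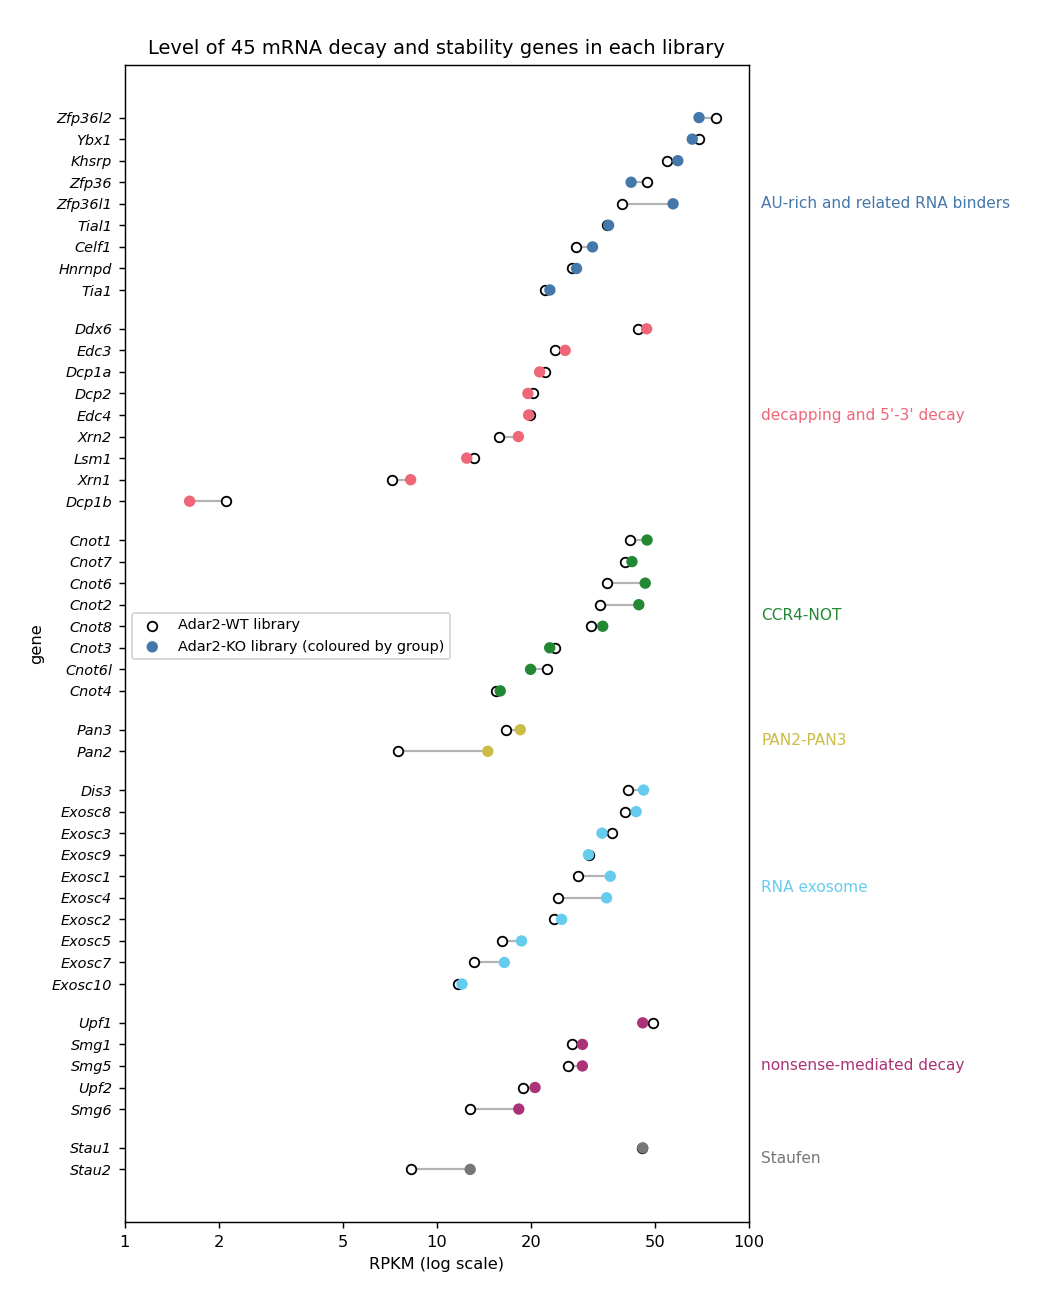
RPKM (log scale) of each of the 45 genes, grouped by complex and ordered by the WT-labelled value; open circles are the WT-labelled and filled circles the KO-labelled library, 1 library each. Most pairs of circles touch or lie close, and the longest lines belong to Pan2 (7.49 and 14.6 RPKM), Stau2 (8.24 and 12.8 RPKM) and Zfp36l1 (39.2 and 57.2 RPKM).

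Differences were small and leaned toward the KO-labelled library. On the scale log2((KO + 1)/(WT + 1)) of RPKM, called the log2 ratio below, the 45 genes had a median of 0.10 and a range of -0.25 to 0.87, and all compared genes had a median of 0.01. The value was higher in the KO-labelled library for 33 of the 45 genes (73.3%; 31 when that library is rescaled to a median log2 ratio of 0), against 50.8% of all compared genes and 52.4% of the 10375 that reach 10 RPKM in either library, called the expressed genes below. On the RPKM + 1 scale 8 members were at least 25% higher in the KO-labelled library (Pan2, Stau2, Zfp36l1, Exosc4, Smg6, Cnot2, Cnot6 and Exosc1), a share near the backgrounds of 18.0% and 14.2% (all compared genes, expressed genes). None of the 45 was lower by the same factor, that is, by at least 20%, where the backgrounds were 18.6% and 12.8%. The remaining 37 lay within this factor, as did 63.4% and 72.9% of genes.

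A single gene, Pan2, was at least 1.5-fold higher (backgrounds 8.99% and 5.34%, in the same order) and none was 1.5-fold lower (12.0% and 6.90%). No member reached 2-fold higher (4.42% and 2.22%) or lower (7.46% and 4.19%). The authors' deposited table scales the libraries in another way and adds 1 read instead of 1 RPKM. At genes above 20 RPKM in both libraries, its log2 fold change lies a median of 0.05 above the log2 of the plain RPKM ratio. By that fold change 3 members were at least 1.5-fold higher (11.8% of all compared genes) and 1, Pan2, at least 2-fold higher (6.44%). Dcp1b, on 66 and 51 reads, was at least 20% lower (18.05% of all compared genes). The GFOLD value of the authors' deposited table, a fold change shrunken to 0 where reads cannot support it, was above 0 for 19 members (backgrounds 29.7% and 32.0%), below 0 for 2, Zfp36l2 and Cnot6l (20.2% and 17.8%), and 0 for 24.

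**Figure D2:**
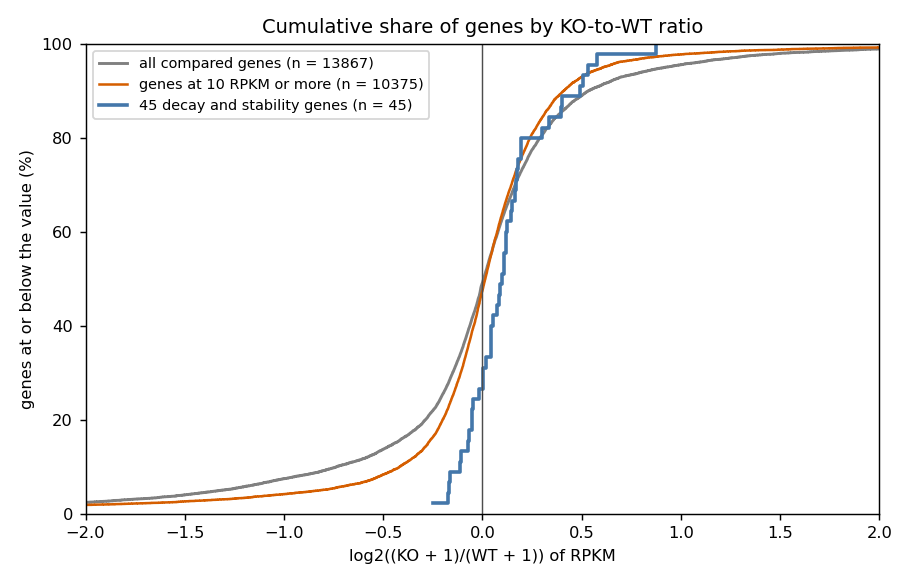
Share of genes (%) at or below each log2 ratio, for the 45 decay and stability genes, all 13867 compared genes and the 10375 genes that reach 10 RPKM in either library. The curve of the 45 genes has no tail on the left, where its lowest value is -0.25, and meets the other curves on the right.

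The 8 genes at least 25% higher in the KO-labelled library came from every group but decapping and 5′-to-3′ decay. Just short of them lay Exosc7 (log2 ratio 0.30), followed by Xrn2 (0.20). Group medians of the log2 ratio were 0.04 for the AU-rich and related binders, -0.02 for decapping and 5′-to-3′ decay, 0.10 for CCR4-NOT, 0.51 for PAN2-PAN3, 0.14 for the exosome, 0.12 for nonsense-mediated decay and 0.29 for Staufen. The PAN2-PAN3 and Staufen medians are each over 2 genes. The ranges of all 7 groups overlapped.

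**Figure D3:**
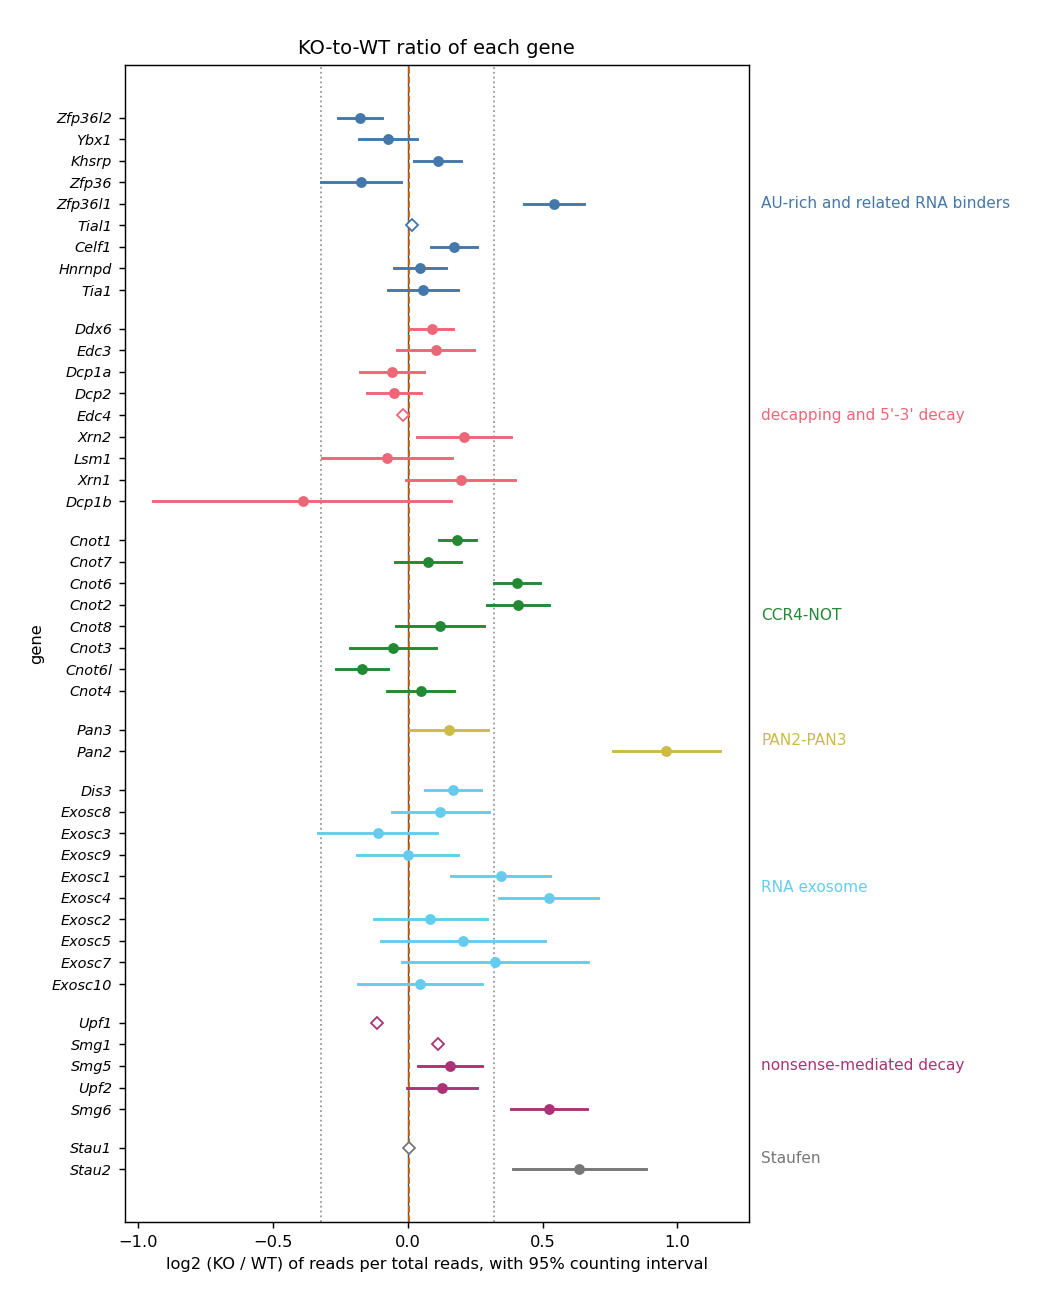
Log2 ratio of reads per total reads (KO over WT) of each gene, with its 95% counting interval; open diamonds are the 5 genes whose read numbers could not be settled, plotted from RPKM without an interval. Dotted lines mark 25% higher and 20% lower, the dashed line is the median of all compared genes on the RPKM + 1 scale; the point of Pan2 lies farthest from it.

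Among the binders of AU-rich elements, the 3 Zfp36 proteins are destabilisers that bring deadenylases to their targets. Zfp36, which encodes tristetraprolin, had 47.3 RPKM (788 reads, WT-labelled) and 42.0 RPKM (707 reads, KO-labelled), with a 95% interval of the log2 reads ratio of -0.32 to -0.02. Zfp36l2 had 78.3 RPKM (2613 reads) and 69.2 RPKM (2335 reads), with an interval of -0.26 to -0.10. Zfp36l1 had 39.2 RPKM (1106 reads) and 57.2 RPKM (1629 reads), with an interval of 0.43 to 0.65. Zfp36l1 thus lay on the other side of 0 from its relatives, beyond counting error for all 3 when scaled by total reads. For Zfp36 the margin is narrow, as its interval ends at -0.02. The authors' GFOLD value was 0 for Zfp36, -0.03 for Zfp36l2 and 0.47 for Zfp36l1. The order of the family changed with Zfp36l1. Zfp36l1 held 23.8% of the family's summed RPKM in the WT-labelled library, the least of the 3, and 34.0% in the other, where Zfp36 held the least (24.9%). The sum was 164.8 and 168.4 RPKM. In the GENCODE annotation 55.9% of the exonic bases of Zfp36l1 lie under Gm26669, a noncoding gene on the opposite strand; use of strand is not given for these counts, so reads of the pair cannot be told apart.

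The other binders differed little. Khsrp, which encodes the destabiliser KSRP, had 54.8 and 59.2 RPKM (interval 0.02 to 0.20), and Celf1, a binder of GU-rich elements, had 28.02 and 31.6 RPKM (interval 0.09 to 0.26). Hnrnpd, which encodes the AUF1 proteins, had 27.2 and 28.1 RPKM, with an interval of -0.05 to 0.14. The interval held 0 for Tia1 too, which encodes a translational silencer of stress granules (22.1 and 23.0 RPKM). Its paralog Tial1 had 35.1 and 35.5 RPKM and held 61.3% and 60.7% of the pair's sum. Ybx1, a cold-shock domain protein that coats and protects mRNA, had 69.2 and 65.9 RPKM (interval -0.18 to 0.04). Ybx1 and Zfp36l2 are the highest of the 45 genes in both libraries. No gene of the table exceeded 107.0 RPKM in the WT-labelled or 124.3 RPKM in the KO-labelled library. Where read numbers were settled, the highest reads per base were 0.997 and 1.19. Zfp36l2 had 0.740 and 0.661 reads per base. Whatever sets that ceiling can compress differences of abundant genes. How far it affects the levels, shares and ratios of any group described here was not tested.

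Decapping and 5′-to-3′ decay had a median log2 ratio of -0.02, near that of all compared genes (0.01). By the fold change of the authors' deposited table the medians were 0.04 and 0.06. On the RPKM + 1 scale all 9 genes lay between 20% lower and 25% higher. Dcp2, the decapping enzyme, had 20.3 RPKM (1655 reads) and 19.6 RPKM (1616 reads), with an interval of -0.15 to 0.05. Its activator Dcp1a had 22.2 and 21.4 RPKM (interval -0.18 to 0.06). The paralog Dcp1b was the lowest of the 45 genes, with 2.11 RPKM (66 reads) and 1.61 RPKM (51 reads), and at that depth its interval ran from -0.94 to 0.16. Dcp1a held 91.3% (WT-labelled) and 93.0% (KO-labelled) of the Dcp1 sum. Edc4, the scaffold that joins Dcp1 and Dcp2, had 19.9 and 19.7 RPKM, and Edc3, an enhancer of decapping, had 24.0 and 25.8 RPKM (interval -0.04 to 0.25). Lsm1, a subunit of the ring that binds shortened tails, had 13.1 and 12.5 RPKM (interval -0.32 to 0.17). None of these 6 differed beyond counting error where an interval could be had, which was not the case for Edc4.

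The exonucleases and the helicase of this group were slightly higher in the KO-labelled library. Xrn1, the cytoplasmic exonuclease, had 7.20 RPKM (374 reads) and 8.24 RPKM (433 reads), with an interval of -0.0068 to 0.40 that just holds 0. Xrn2, its nuclear counterpart, had 15.8 and 18.3 RPKM (interval 0.03 to 0.38). Xrn2 was the more abundant by a near-constant ratio, holding 68.7% and 68.9% of the pair's sum. Ddx6, a helicase of P-bodies that links deadenylation to decapping, was the most abundant of the group at 44.2 and 47.0 RPKM (interval 0.01 to 0.17).

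In CCR4-NOT, the main cytoplasmic deadenylase, 2 genes stood apart from the others. Cnot2, part of the NOT module, had 33.5 RPKM (1101 reads, WT-labelled) and 44.4 RPKM (1477 reads, KO-labelled), with an interval of 0.30 to 0.52. Cnot6, a catalytic subunit of the Ccr4 type, had 35.1 RPKM (1906 reads) and 46.6 RPKM (2552 reads), with an interval of 0.32 to 0.49. Its paralog Cnot6l, which takes the same place in the complex, had 22.5 RPKM (1871 reads) and 19.98 RPKM (1681 reads), with an interval of -0.27 to -0.07. The 2 intervals lie on opposite sides of 0. Cnot6 held 61.0% (WT-labelled) and 69.98% (KO-labelled) of the pair's sum.

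The Caf1-type catalytic pair kept its proportions. Cnot7 had 40.1 and 42.2 RPKM (interval -0.05 to 0.20) and Cnot8 had 31.3 and 34.0 RPKM (interval -0.04 to 0.28), so that Cnot7 held 56.1% and 55.4% of their sum. Cnot1, the scaffold of the complex and the member with the most reads (3286 and 3773), had 41.5 and 47.2 RPKM, with an interval of 0.12 to 0.25. The NOT-module partner of Cnot2, Cnot3, had 23.9 and 23.0 RPKM (interval -0.21 to 0.10), and the ubiquitin ligase Cnot4, which is loosely bound to the complex, had 15.4 and 16.0 RPKM (interval -0.08 to 0.17).

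Pan2, the catalytic subunit of the deadenylase that trims long tails first, had the largest log2 ratio of the 45 genes. It had 7.49 RPKM (315 reads, WT-labelled) and 14.6 RPKM (619 reads, KO-labelled), a 1.94-fold difference of the RPKM values and a log2 ratio of 0.87. The interval of the log2 reads ratio was 0.76 to 1.16, above the intervals of all other members except Stau2. Pan3, its adaptor subunit, had 16.7 and 18.5 RPKM (interval 0.01 to 0.30). Pan2 held 31.0% (WT-labelled) and 44.0% (KO-labelled) of the pair's sum, though it was the lower of the pair in both.

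Of the exosome, the 3′-to-5′ exonuclease complex, 9 of 10 subunits were higher in direction in the KO-labelled library, 2 of them by at least 25% (backgrounds 50.8% and 18.0% of all compared genes), and 8 when that library is rescaled to a median log2 ratio of 0, where Exosc9 lies just below 0. Exosc4, a subunit of the ring, had 24.4 RPKM (412 reads) and 35.01 RPKM (598 reads), with an interval of 0.34 to 0.71. Exosc1, a cap subunit, had 28.3 RPKM (434 reads) and 36.0 RPKM (557 reads), with an interval of 0.16 to 0.53. Exosc7, another ring subunit, had 13.2 RPKM (129 reads) and 16.5 RPKM (163 reads), but with these few reads its interval was -0.02 to 0.67. In the GENCODE annotation Exosc4 shares 19.8% of its exonic bases with Oplah on the opposite strand, which had 12.1 RPKM (WT-labelled) and 5.57 RPKM (KO-labelled). Exosc9 shares 10.8% with Ccna2 (69.5 and 68.7 RPKM) and Exosc2 12.4% with Gm13427, both on the opposite strand.

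For the other ring subunits among the 10, Exosc7 included, the interval held 0. Those of Exosc5 and Exosc7 also overlapped the interval of Exosc4, so a like difference is not excluded for them. Exosc9 had 30.6 RPKM in both libraries (interval -0.19 to 0.19), Exosc8 had 40.05 and 43.5 RPKM (interval -0.06 to 0.30), and Exosc5 had 16.2 and 18.7 RPKM (interval -0.10 to 0.51). Of the cap subunits, Exosc2 had 23.7 and 25.1 RPKM (interval -0.13 to 0.29) and Exosc3 had 36.5 and 33.8 RPKM (interval -0.33 to 0.11), the only one of the 10 that was lower in the KO-labelled library. Dis3, the nuclease of the complex, had 40.9 RPKM (1438 reads) and 46.0 RPKM (1634 reads), with an interval of 0.07 to 0.27. Exosc10, the nuclear nuclease, was the lowest of the group at 11.7 and 12.05 RPKM (interval -0.19 to 0.27). The subunits of this complex thus differed up to 3.50-fold in RPKM within the WT-labelled library, more than any of them differed between libraries.

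In nonsense-mediated decay, Smg6, the endonuclease that cuts near the stop codon, differed most. It had 12.7 RPKM (698 reads, WT-labelled) and 18.3 RPKM (1014 reads, KO-labelled), with an interval of 0.38 to 0.66. Smg5, which recruits the phosphatase that resets Upf1, had 26.3 and 29.3 RPKM (interval 0.04 to 0.27). Smg1, the kinase of Upf1, had 27.1 and 29.3 RPKM, and the adaptor Upf2 had 18.9 and 20.6 RPKM (interval -0.0024 to 0.26). The helicase Upf1, the most abundant of the 5, had 49.4 and 45.7 RPKM and was the only one with the lower value in the KO-labelled library.

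The Staufen proteins, which bind double-stranded RNA and so meet the same kind of structure as the editing enzymes, differed from each other. Stau1, the widely expressed form, had 45.6 and 45.7 RPKM. Stau2, known best from neurons, had 8.24 RPKM (225 reads) and 12.8 RPKM (353 reads), with an interval of 0.39 to 0.88. Stau2 held 15.3% (WT-labelled) and 21.9% (KO-labelled) of the pair's sum.

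Further decay factors outside the 45 were counted at the same threshold, at least 25% higher or 20% lower on the RPKM + 1 scale. It was passed by 18.0% and 18.6% of all compared genes, and by 14.2% and 12.8% of the expressed genes. Of 23 other RNA stability binders, 2 were higher and none lower in the KO-labelled library (median log2 ratio 0.07). The 2 were the growth-associated mRNA binders Igf2bp1 (17.2 and 23.9 RPKM) and Igf2bp3 (23.8 and 32.9 RPKM), and the lowest were the nuclease Zc3h12a (44.0 and 38.4 RPKM) and Celf2 (17.3 and 14.2 RPKM). Of 16 other decapping factors 1 was higher and none lower (median 0.05), with the nudix hydrolase Nudt16 (10.7 and 15.1 RPKM) and the eIF4E transporter Eif4enif1 (18.8 and 23.8 RPKM) at the upper end and Pnrc2 (44.2 and 38.3 RPKM) and Lsm2 (38.0 and 34.1 RPKM) at the lower.

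Of 15 other deadenylation genes 2 were at least 25% higher and 1 at least 20% lower (median 0.14). All 3 belong to the BTG/TOB family, whose proteins bind the Caf1-type subunits Cnot7 and Cnot8. Tob1 and Tob2 of this family did not pass (log2 ratios 0.14 and 0.02). Btg2 had 26.9 RPKM (784 reads) and 39.0 RPKM (1149 reads), with an interval of 0.40 to 0.67. Btg1 had 22.05 and 27.9 RPKM, while Btg3 had 53.9 RPKM (707 reads) and 37.0 RPKM (490 reads), with an interval of -0.71 to -0.38. Btg3 shares 17.3% of its exonic bases with Cxadr on the opposite strand. Next lowest was the mitochondrial deadenylase gene Pde12 (27.3 and 22.9 RPKM).

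Of 16 other exosome genes and cofactors 2 were higher and none lower (median -0.01). The 2 were the ribosome rescue factor Hbs1l (17.3 and 23.9 RPKM) and the nuclease Dis3l2 (4.54 and 7.10 RPKM), the latter below the expression floor for named genes and chosen after its values were seen. Next came the nuclease Dis3l (21.1 and 25.04 RPKM), and the lower end was held by the ring subunit Exosc6 (31.9 and 27.96 RPKM) and the cofactor C1d (15.8 and 14.8 RPKM). All annotated bases of Exosc6 lie in exons of Aars. Of 16 other factors of nonsense-mediated decay 1 was higher and none lower (median 0.09), with the helicase Dhx34 (10.5 and 15.5 RPKM) and the junction protein Casc3 (26.0 and 32.3 RPKM) highest and Rnps1 (46.0 and 38.3 RPKM) and Pnrc2, which is in both lists, lowest.

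**Figure D4:**
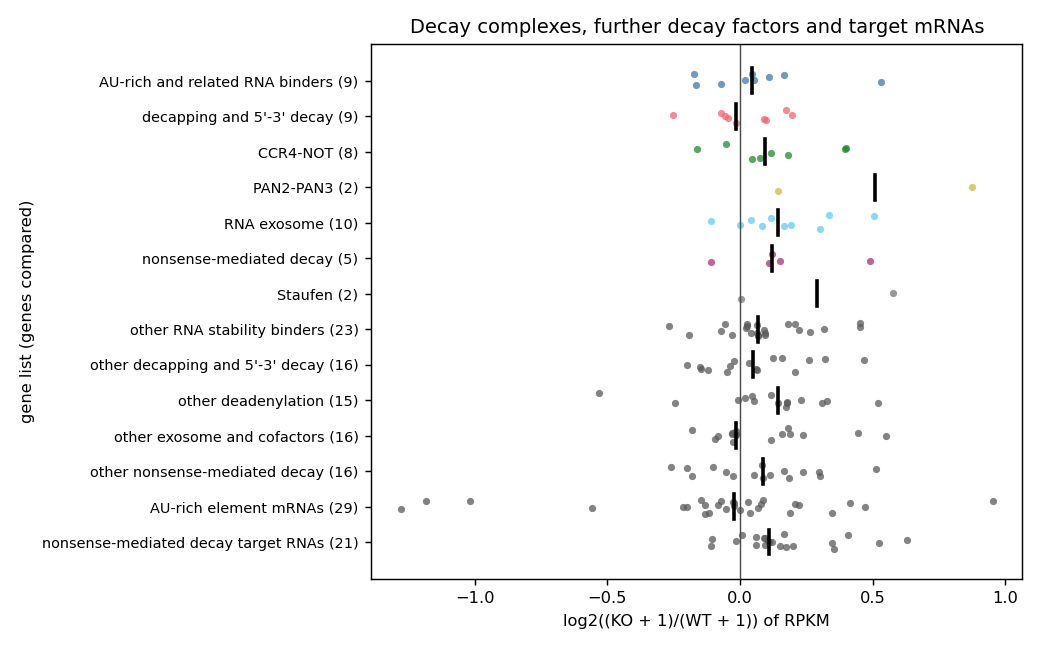
Log2 ratio of RPKM + 1 for each compared gene of the 7 groups (coloured) and of 7 further lists (grey), with the median of each list as a black bar and the number of genes in brackets. Medians lie between -0.02 and 0.14 except in PAN2-PAN3 and Staufen, and the longest range is in the AU-rich element mRNAs, from -1.28 to 0.95.

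Known target mRNAs of the binders held a few large differences. Of 29 compared mRNAs from a list of 30 with AU-rich elements, 4 were at least 25% higher and 4 at least 20% lower. Their median log2 ratio was -0.02, with quartiles of -0.13 and 0.09. The backgrounds were 18.0% and 18.6% of all compared genes (quartiles -0.21 and 0.22), and 14.2% and 12.8% of the expressed genes. The cytokine gene Il6 had 23.4 RPKM (240 reads) and 9.73 RPKM (101 reads), with an interval of -1.61 to -0.92, and the early response gene Fos had 24.3 and 16.2 RPKM (interval -0.79 to -0.38). At the other end, the cell cycle inhibitor gene Cdkn1a had 30.1 RPKM (577 reads) and 59.3 RPKM (1147 reads), with an interval of 0.83 to 1.12, and the cytokine gene Lif had 16.7 and 23.6 RPKM. The other 4 of these 8, named after their values were seen, were Plk2 (30.95 and 41.6 RPKM) and Ptgs2 (43.9 and 56.1 RPKM) on the higher side and the chemokine and cytokine genes Cxcl2 (17 reads and 1 read) and Csf2 (12 reads and 1 read) on the lower. These genes are also set by transcription, which RPKM does not separate from decay. The list was set by name and not by the search for the core. That search found no UAUUUAU core in some of its 3′ UTRs, among them those of Cdkn1a, Myc, Junb, Egr1 and Vegfa. It found 1 in Il6, 2 in Fos and 5 in Lif. It covered a single transcript per gene, with a 3′ UTR of 315 bases for Vegfa, so cores in other transcripts would be missed.

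Across all genes, the number of UAUUUAU cores in the 3′ UTR made little difference to the median ratio. The median log2 ratio was 0.0030 for the 8568 compared genes with no core, 0.01 for 2210 genes with 1, 0.0080 for 720 with 2, 0.00064 for 256 with 3 and 0.02 for 156 with 4 or more. The quartiles of each class ran from about -0.2 to about 0.2. Median 3′ UTR length rose from 700 bases with no core to 3419.5 bases with 4 or more, so the classes also differ in length. For ATTTATTTA the medians were 0.0038 for 11226 genes with none, 0.03 for 540 with 1 and -0.02 for 96 with 2. They were 0.15 for 33 genes with 3 and 0.02 for 15 with 4 or more.

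**Figure D5:**
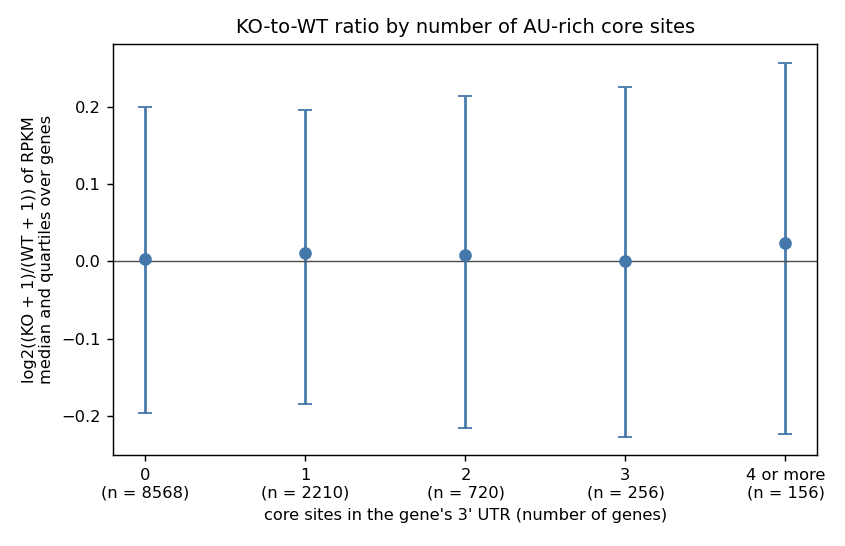
Median log2 ratio of RPKM + 1 (points) and quartiles over genes (bars) by the number of TATTTAT cores in the 3′ UTR, with the number of genes under each class. All 5 medians lie between 0.00064 and 0.02, far inside the quartiles.

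RNAs known as targets of nonsense-mediated decay had 5 of 21 members at least 25% higher and none lower in the KO-labelled library (median 0.11; background 18.0%). The list includes Smg1, Smg5, Upf1 and Upf2, whose mRNAs are themselves targets. The highest were Ern1, which encodes a sensor of the unfolded protein response (10.6 and 16.9 RPKM; interval 0.49 to 0.86), and the stress gene Gadd45a (32.7 and 47.5 RPKM; interval 0.35 to 0.73). The other 3, named after their values were seen, were the small nucleolar RNA hosts Gas5 (34.4 and 45.9 RPKM) and Snhg1 (13.8 and 17.8 RPKM, on 62 and 81 reads) and the stress gene Ddit3 (53.2 and 68.3 RPKM). The lowest were Upf1 and Tbl2 (33.3 and 30.8 RPKM).

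RNA editing was listed in 1 of the 45 genes, against 1.38% of all compared genes with a site in either library. The site lies in the 3′ UTR of Dcp2 on chromosome 18 (mm9 position 44584357, plus strand) and had 2 edited reads of 25 in the WT-labelled library, a level of 8.0% (Wilson 95% interval 2.22 to 24.97). It was not listed in the KO-labelled library; the lists give no depth for such sites, so absence of editing is not shown.

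Among the further decay factors, 3 genes had listed sites, all in 3′ UTRs. Pum2, a repressor that recruits CCR4-NOT, was edited on chromosome 12 (mm9 8757075) in 65.96% of 47 reads (Wilson interval 51.7 to 77.8) and 6.0% of 50 reads (2.06 to 16.2), WT-labelled first. By Fisher's exact test with Benjamini-Hochberg adjustment over 55 shared sites its adjusted p was 3.37e-09. Its level was 33.0 and 33.6 RPKM. Rbm8a, a protein of the exon junction complex that marks targets of nonsense-mediated decay, was edited on chromosome 3 (96436636) in 57.7% of 26 reads and in 9.52% of 21 reads (adjusted p = 0.00172, the same exact test), and its level was 22.9 and 20.02 RPKM. The other sites of Rbm8a appear in the WT-labelled list alone, at 20.7% of 29 reads (96436381) and 96.3% of 27 reads (96436383). Ncl, which encodes the AU-rich element binder nucleolin, had 4 sites on chromosome 1 in the WT-labelled library (88241814 to 88244312), edited in 71.4% of 7 reads, 18.8% of 16, 9.09% of 22 and 14.3% of 21, and none listed in the KO-labelled library; its level was 38.5 and 43.8 RPKM. With 1 library each, this is a test between libraries and not between genotypes.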

How the data were processed

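Gene values are RPKM in a table deposited by the authors, which per the file headers is GFOLD output with a column for each library. Deposited beside them are a log2 fold change, a GFOLD value (also log2) and an empirical FDR (a p-value-like column), which stood at 1 in all 24015 rows and was not used. The editing files deposited by the authors give, per the file headers, a read count over each site, a count of mismatched reads and the edited fraction. STAR 2.4.0d, SAMtools and the mm9 build are listed, without their roles, in the submitters' processing notes. Annotation, counting rule, strand use, editing caller: not given in the sources used here.

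The log2 ratio is log2((KO + 1)/(WT + 1)) of RPKM, for genes reaching 1 RPKM in either library. The authors' fold change, with 1 added to each count, and the RPKM values were solved together for whole read numbers and library totals. A single solution was found for 93.7% of 17981 genes above 0 and for 40 of the 45 members. Intervals are exact (Clopper-Pearson, conditional on the sum) at 95% and, as reads carry no molecular identifiers, cover counting error only. The scripts were tested on simulated data. No p-value across genes was computed.

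The 3′ UTR was taken from the GENCODE M21 transcript (GRCm38) with the longest coding sequence, at least 20 bases long. Editing levels carry Wilson intervals, and sites listed in both libraries, each with 10 or more reads, were tested by Fisher's exact test with Benjamini-Hochberg adjustment (threshold 0.05). All 45 members are named, with the 2 highest and 2 lowest of each further list at 10 RPKM or more, genes of these lists with edited sites, and Adarb1. Members and lists were chosen with earlier results of these data known. Of 144 symbols in the further lists, 2 older or newer names were not matched and their genes entered under the other name where listed. Analyses used Python 3.11.15, pandas 2.3.3, NumPy 2.4.6 and SciPy 1.17.1.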

Additional observations from a re-analysis of the deposited data

How the results depend on the processing

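With 1 library per genotype no replicate could be left out. No paired analysis was possible because each genotype has a single library. Pseudocounts of 0.1 and 5 RPKM, no filter or a filter of 5 RPKM, a KO-labelled column rescaled to a median ratio of 0, upper quartile scaling and the authors' log2 fold change were tried; the count of members higher in direction, the search for the core, the fold change as a basis for counts, the transcript with the longest 3′ UTR, and leaving out the 5 members that share at least 10% of their exonic bases with another gene, were chosen after seeing the data. The number of members at least 25% higher stayed between 6 (of the 40 without the overlapping genes) and 9 (of 45, by the authors' fold change). The share of all genes ran from 11.6% with no filter to 22.6% by the authors' fold change. No setting made a member 1.5-fold lower. With a pseudocount of 0.1 RPKM, 2 members passed 1.5-fold higher (background 10.6%) and 1 passed 20% lower (19.7%). By the authors' fold change the counts were 3 (11.8%) and 1 (18.05%), and 1 member was 2-fold higher (6.44%). The authors' fold change differs in both pseudocount and scaling: Pan2 was at 0.95 with 0.1 RPKM added and at 1.01 by that fold change. The number higher in direction ran from 31 to 35 of 45, and was 28 of 40 without the overlapping genes (50.8% of all genes). The share of all genes moved with the setting too. The 35 came from the authors' fold change, by which 58.03% of all compared genes were higher. The 31 came from the column rescaled to a median ratio of 0, which by design splits all compared genes about evenly. With no filter 33 members were higher, against 34.8% of all genes. Only Dcp2, Edc4, Exosc9 and Stau1, all close to 0, changed sign under a setting. The median of decapping and 5′-to-3′ decay was 0.04 by the authors' fold change and -0.03 without the overlapping genes, against -0.02. With a pseudocount of 5 RPKM the log2 ratio of Pan2 was 0.65. With the longest 3′ UTR 16 members held a core, against 14. Depth limits the lowest members most: Dcp1b rests on 66 and 51 reads.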
